A study of Homo sapiens with 6 samples.

Results

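The 36 genes described here are those that make or handle the RNA of the mitochondrial genome. They comprise the 13 protein-coding genes of mitochondrial DNA and 23 nuclear genes whose proteins replicate that DNA, transcribe it, or process, stabilise, degrade or translate its RNA. They were taken by symbol from the 38557 genes listed in the count files, all 36 were found, and all 36 passed the filter on low counts that left 16107 genes for testing. The cells were cardiomyocytes made from WTC11 (an established line of human induced pluripotent stem cells, labelled WT), and all libraries came from this line. The first group of 3 biological replicates was cultured in RPMI plus the supplement B27, and the second group of 3 in DMEM with added fatty acids. The labels give no time in the medium, no treatment beyond it, no composition of either medium and no statement of whether replicates were separate differentiations, so the p-values measure the spread between these libraries. RNA sequencing of poly(A)-selected RNA with a stranded kit gave 6 libraries. A positive log2 fold change means a higher level in the fatty acid medium.

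Human mitochondrial DNA is a small circle that encodes 13 subunits of the respiratory chain and ATP synthase together with the ribosomal and transfer RNAs needed to translate them. It is transcribed from both strands as long polycistronic RNAs by the polymerase POLRMT with the factors TFAM and TFB2M, and these RNAs are cut at the transfer RNAs that punctuate the messages. Most of the resulting mRNAs are polyadenylated, with ND6 the known exception, and are bound by the LRPPRC and SLIRP complex. Mitochondrial RNA is degraded by the SUPV3L1 helicase with the nuclease PNPT1. Heart muscle cells hold many mitochondria, and every respiratory complex that contains a mitochondrially encoded subunit is completed by subunits made from nuclear genes.

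The libraries held 23232324 to 31035389 gene counts. A count of 0 would have allowed up to 0.0967 to 0.129 CPM, which are counts relative to library size after scaling by TMM factors. All 12 cardiomyocyte markers looked at were detected in every library (lowest value 62.9 CPM, of MYL2), and their summed level was 30603 to 37325 CPM in RPMI plus B27 and 24581 to 34376 CPM in DMEM plus fatty acids. This sum joins markers that differed in both directions. Of the 12, 5 had a positive and 7 a negative log2 fold change. Without overlap 1 was higher and 3 were lower, where 12.8% of all genes tested were so in each direction. Summed levels of 10 fibroblast markers were 4311 to 8274 CPM in RPMI plus B27 and 728 to 1936 CPM in DMEM plus fatty acids. Of these 10, 10 had a negative log2 fold change and 5 passed the test. Summed smooth muscle markers were 1946 to 2284 CPM and 578 to 1353 CPM, and epicardial markers 1691 to 2237 CPM and 798 to 1023 CPM. The epicardial sum was nearly all KRT8 and KRT18. Over all libraries WT1 was at only 0.0669 to 0.867 CPM and ALDH1A2 at 0.0669 to 0.942 CPM. Summed levels of 6 endothelial markers were 30.1 to 240 CPM in RPMI plus B27 and 115 to 464 CPM in DMEM plus fatty acids, with overlap. Nearly all of that sum was KDR, and of the defining markers PECAM1 was at 0 in 3 libraries and CDH5 in all 3 of DMEM plus fatty acids. The part of these markers in the results below was not tested, and in bulk RNA fewer cells of a type and less RNA per cell cannot be told apart.

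Mitochondrial messages lie end to end on the circular genome, and some share bases, which bears on how their reads can be counted. The following stretches of reference sequence (GENCODE transcripts, positions from RefSeq on GRCh38.p14, plus strand) show the end of ATP8 with the start of ATP6, and the end of ND4L with the start of ND4, with the shared bases in capitals.
ATP8, chrM:8513-8572: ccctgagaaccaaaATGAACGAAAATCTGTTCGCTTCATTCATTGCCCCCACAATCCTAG
ATP6, chrM:8527-8586: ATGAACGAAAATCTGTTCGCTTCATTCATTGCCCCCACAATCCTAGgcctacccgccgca
ND4L, chrM:10707-10766: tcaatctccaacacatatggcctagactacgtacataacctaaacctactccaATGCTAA
ND4, chrM:10760-10819: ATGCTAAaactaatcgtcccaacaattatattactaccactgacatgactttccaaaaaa
ATP8 and ATP6 shared 46 of the 207 bases of ATP8, ND4L and ND4 shared 7 of the 297 bases of ND4L, and ATP6 and COX3 shared 1 base. Reads overlapping more than 1 gene were set aside in the files. They made up 4.11% to 4.15% of all counts in a file in RPMI plus B27 and 3.90% to 3.96% in DMEM plus fatty acids, without overlap. The part of these reads in the results for the gene pairs was not tested. How reads only partly on shared bases were treated is not known here, but those wholly on them are missing from both genes of a pair. ATP8, with the largest shared part of its length, is the most exposed to this. Reads aligned to more than 1 place were set aside as well. They made up 3.76% to 4.10% in RPMI plus B27 and 3.05% to 3.36% in DMEM plus fatty acids, ranges that did not overlap. Mitochondrial sequence has copies in the nuclear genome, and the part of these reads in the mitochondrial counts was not tested.

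The 13 mitochondrially encoded mRNAs took a smaller share of the gene counts in DMEM plus fatty acids. Their share was 6.77%, 7.39% and 7.53% in RPMI plus B27 (replicates 1 to 3) and 6.64%, 5.39% and 5.86% in DMEM plus fatty acids. The means were 7.23% ± 0.402 and 5.97% ± 0.631 (SD, n = 3 each), and 95% Wilson intervals, which cover counting error only, reached at most 0.0105 percentage points to either side of a library's share. The groups did not overlap, but replicate 1 of DMEM plus fatty acids lay just under replicate 1 of RPMI plus B27. Within replicate numbers 1 to 3 the difference was -0.132, -1.99 and -1.67 percentage points. An exact permutation test of 3 against 3 libraries cannot give a two-sided p below 0.1. COX1, the catalytic subunit of cytochrome c oxidase, was the most abundant gene of all in each of the 6 libraries.

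No member passed the edgeR quasi-likelihood test with Benjamini-Hochberg adjustment over all genes tested, where 219 of 16107 genes (1.36%) passed, of which 47 had positive and 172 negative log2 fold changes. A fit that kept replicate numbers as blocks passed 770 genes (4.78%) and again 0 of the 36 members. The DESeq2 Wald test passed 7.71% of the genes it tested and called 4 of the 13 mitochondrially encoded genes, all lower, and 0 of the 23 nuclear members. At an unadjusted edgeR p under 0.05, 5 of the 13 mitochondrially encoded genes were lower and 0 higher, against 9.98% lower and 7.7% higher among all genes tested. Of the 23 nuclear members, 6 were higher and 1 was lower at that level. These counts changed with the libraries, the scaling and the model used. Leaving out a library also leaves less data to estimate the spread, so a drop cannot be put down to that library alone. The 5 became 1 without DMEM plus fatty acids replicate 2, 2 without RPMI plus B27 replicate 2, and 3 without replicate 3 of either medium, with library totals as scaling or with the replicate block. The 7 nuclear members became 2 without DMEM plus fatty acids replicate 1 or replicate 2, and 4 without its replicate 3 or without RPMI plus B27 replicate 1 or replicate 2. The median log2 fold change was -0.39 for the mitochondrially encoded genes, 0.17 for the nuclear members and 0.01 for all genes tested. Scaling by library totals alone put the median of all genes at 0.12, and relative to it the first 2 medians were -0.40 and 0.16, the same as relative to all genes in the TMM fit.

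**Figure D1:**
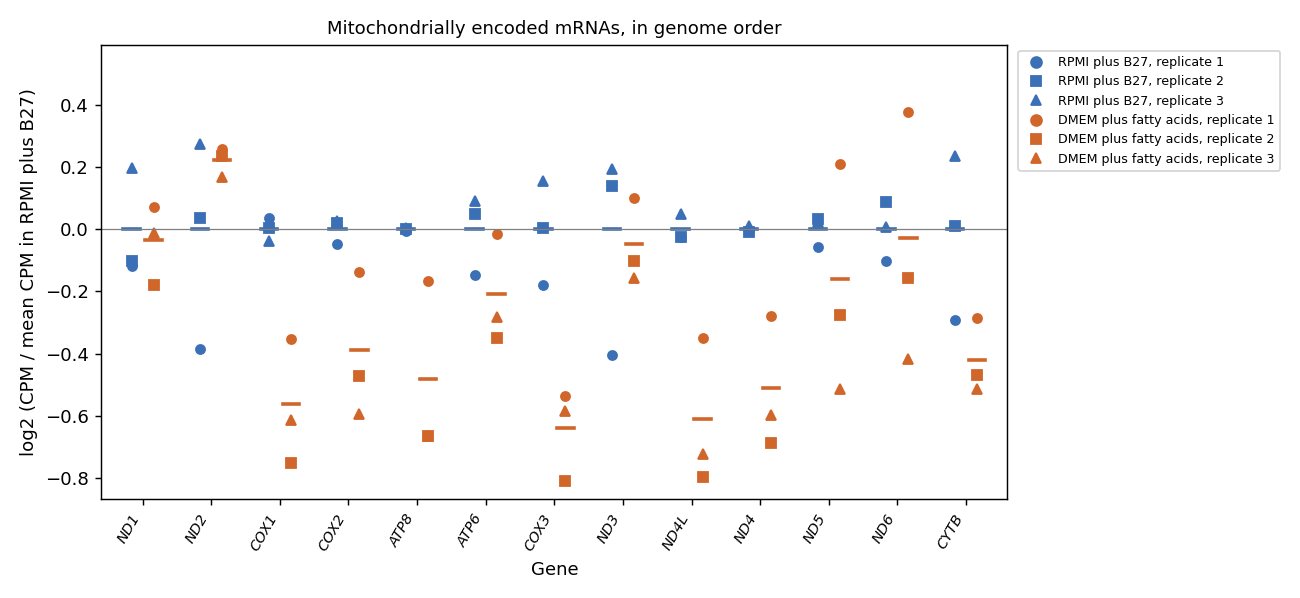
CPM of the 13 mitochondrially encoded mRNAs in each library, as log2 of the ratio to the gene's mean in RPMI plus B27 (y axis), with genes in genome order (x axis). Points are libraries and short bars group means. All DMEM plus fatty acids points lie below all RPMI plus B27 points for COX1, COX2, ATP8, COX3, ND4L and ND4, and replicate 1 of DMEM plus fatty acids is the highest of its group for all 13 genes.

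Among the cytochrome c oxidase subunits, COX1 measured 20194, 19759 and 19191 CPM in RPMI plus B27 and 15430.3, 11702 and 12885 CPM in DMEM plus fatty acids. Its log2 fold change was -0.56 ± 0.22 (SE, edgeR adjusted p 0.249, DESeq2 adjusted p 0.00644). COX3, a core subunit without metal centres, measured 7019.8, 7959 and 8848 CPM against 5473, 4534 and 5295 CPM. Its log2 fold change of -0.64 ± 0.20 was the most negative of the 36 members (edgeR adjusted p 0.162, DESeq2 adjusted p 0.00167). COX2, which carries the copper centre that accepts electrons from cytochrome c, measured 6709, 7037 and 7073 CPM against 6309, 5004 and 4599.6 CPM (-0.39 ± 0.20, edgeR adjusted p 0.357). For all 3 subunits the groups did not overlap and each replicate number was lower in DMEM plus fatty acids, with the smallest within-number difference in replicate 1.

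The 7 complex I subunits differed among themselves. ND4 measured 13991, 13946 and 14130.4 CPM in RPMI plus B27 (SD 96.2) and 11551, 8709 and 9258 CPM in DMEM plus fatty acids (-0.51 ± 0.21, edgeR adjusted p 0.270, DESeq2 adjusted p 0.0216). ND4L, carried on the same message as ND4, measured 1187, 1186 and 1249 CPM against 947, 696 and 731 CPM (-0.61 ± 0.16, edgeR adjusted p 0.121, DESeq2 adjusted p 0.00792). This edgeR adjusted p was the smallest among the members, and it was 0.0834 with the replicate block. ND4 and ND4L were the complex I messages whose groups did not overlap.

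ND1, ND2, ND3, ND5 and ND6 overlapped between media. ND2 measured 2572, 3448 and 4069 CPM against 4026, 3961 and 3776 CPM, the only positive log2 fold change of the 13 (0.22 ± 0.21, 95% interval -0.27 to 0.71). It was 0.06 without RPMI plus B27 replicate 1 and 0.38 without RPMI plus B27 replicate 3. ND1 measured 3694, 3734 and 4595 CPM against 4212, 3543 and 3978 CPM (-0.04 ± 0.18, 95% interval -0.46 to 0.39). ND1 and ND2 thus differed by less than the spread between replicates. ND6, the only one of the 13 on the other strand, measured 1697, 1933 and 1831 CPM against 2365, 1631 and 1362 CPM. Its DMEM plus fatty acids replicates lay on both sides of the RPMI plus B27 range (-0.03 ± 0.22, 95% interval -0.55 to 0.50), and ND5, its neighbour on the genome, was spread in the same way with 6132, 4385 and 3720 CPM (-0.16 ± 0.23; -0.39 without replicate 1 of that medium and -0.01 without replicate 3). ND6 mRNA is known to lack a poly(A) tail, so in these poly(A)-selected libraries its level and share cannot be set beside those of the other 12 genes as amounts of RNA. The strand setting of the counting is not given, so reads of ND6 and of RNA from the opposite strand cannot be told apart. ND3 had -0.05 ± 0.20. The signs of ND1, ND3 and ND6 turned positive when libraries were scaled by totals alone, which left 9 of the 13 genes lower instead of 12.

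CYTB, the mitochondrially encoded subunit of complex III, measured 3615, 4462 and 5212 CPM in RPMI plus B27 and 3630.3, 3202 and 3102 CPM in DMEM plus fatty acids (-0.42 ± 0.20, edgeR adjusted p 0.323). The groups overlapped through replicate 1, which was nearly equal in both media. Of the ATP synthase subunits, ATP8 measured 530.1, 532 and 534 CPM against 473, 335 and 335 CPM, with no overlap (-0.48 ± 0.17, edgeR adjusted p 0.198). ATP6, the proton channel subunit, measured 3843, 4407 and 4533 CPM against 4216, 3342 and 3503 CPM, with overlap (-0.21 ± 0.18, edgeR adjusted p 0.590). In all, 6 of the 13 genes were lower without overlap and 0 higher without overlap, where 12.8% of all genes tested were lower without overlap and 12.8% higher.

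Levels were compared between genes as CPM per kilobase of bases not shared with another of the 13. COX1 stood highest in RPMI plus B27 (12785 ± 326 CPM per kilobase, SD, n = 3) and in DMEM plus fatty acids (8650.5 ± 1236). ND4 (10228 ± 70.1), COX2 (10146 ± 294) and COX3 (10143 ± 1167) followed in RPMI plus B27 and did not differ beyond their spread. In DMEM plus fatty acids they measured 7177 ± 1099.5, 7755 ± 1306 and 6514 ± 637 CPM per kilobase. ATP6 came next in both media, at 6721 ± 579 and 5815 ± 734 CPM per kilobase. The other 8 genes lay between 2929 (ND5) and 4507 (ND3) CPM per kilobase in RPMI plus B27 and between 2368 (ATP8) and 4357 (ND3) in DMEM plus fatty acids, and most neighbours in that order overlapped within their spread. The same 5 genes therefore led in both media, and the distance from COX1 to ND2 (3228 ± 722 and 3763 ± 125 CPM per kilobase) was smaller in DMEM plus fatty acids. Reads set aside over shared bases can lower the value of ATP8, and their part in it was not tested.

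The composition of the mitochondrial messages was then read within each library, as the percentage each gene took of the counts of the 13, which no scaling between libraries can move. In 8 of the 13 genes the groups did not overlap, and in the fatty acid medium 4 of these were higher and 4 lower. The 13 shares of a library make up a whole, so they are not 13 separate results. On CPM, which is a different measure, 12.8% of all genes tested were higher without overlap and 12.8% lower. For these 8 the two-sided exact permutation p was 0.1, the smallest that 3 against 3 libraries can give (Benjamini-Hochberg adjusted 0.163 over the 13 genes), so no gene could pass. Wilson intervals of these shares reached at most 0.0666 percentage points to either side.

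**Figure D2:**
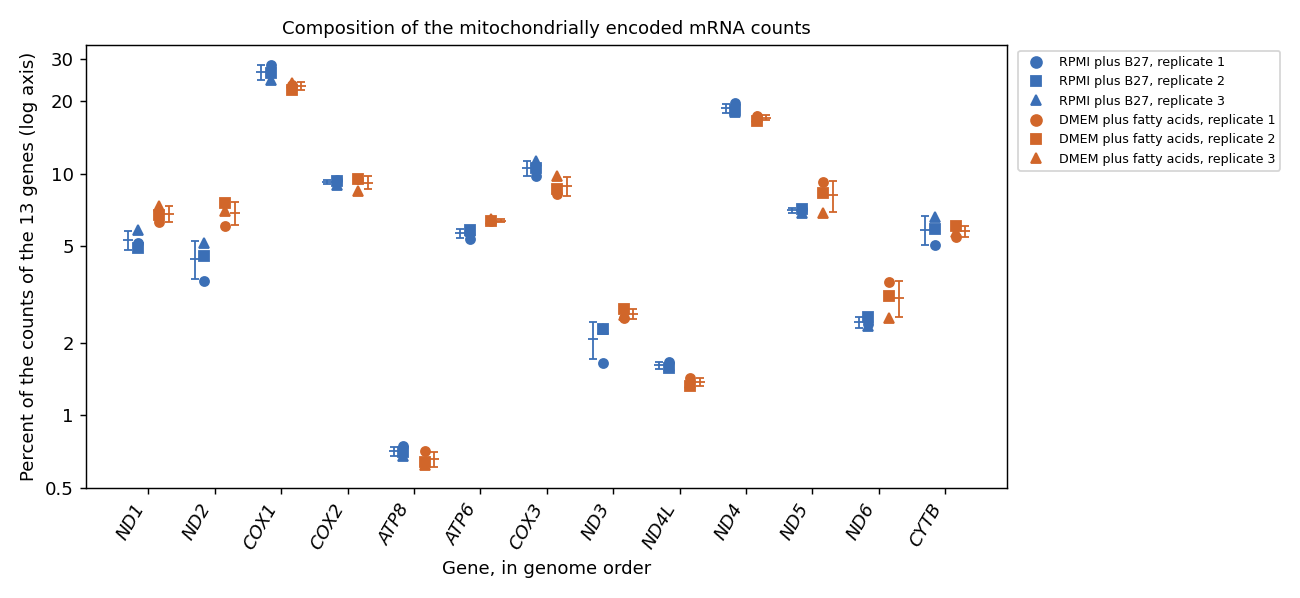
Percentage of each gene among the counts of the 13 mitochondrially encoded mRNAs (y axis, log scale), with genes in genome order (x axis). Points are libraries and the bars beside them mean ± SD of 3. ND1, ND2, ND3 and ATP6 lie higher in all 3 DMEM plus fatty acids libraries than in any RPMI plus B27 library, and COX1, COX3, ND4 and ND4L lie lower.

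The genes with a higher share were ND1, ND2, ND3 and ATP6. Shares are parts of a whole in each library, so lower shares of some genes raise the shares of others. A higher share was thus not always a higher level. The log2 fold changes of these genes were -0.04 (ND1), 0.22 (ND2), -0.05 (ND3) and -0.21 (ATP6). ND2 took 3.61%, 4.56% and 5.19% in RPMI plus B27 and 6.06%, 7.55% and 6.9996% in DMEM plus fatty acids, a ratio of means of 1.54 and the largest of the 13. ND1 took 5.18%, 4.94% and 5.86% against 6.34%, 6.75% and 7.38%. ND3 took 2.07% ± 0.359 against 2.63% ± 0.128, and ATP6 5.67% ± 0.243 against 6.40% ± 0.0800 (SD, n = 3 each). ND1, ND2, ND3 and ATP6 encode subunits of 2 different complexes and do not lie next to each other on the genome, apart from ND1 and ND2.

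The genes with a lower share were COX1, COX3, ND4 and ND4L. COX1 took 28.3%, 26.2% and 24.5% in RPMI plus B27 and 23.2%, 22.3% and 23.9% in DMEM plus fatty acids, so that 1 RPMI plus B27 library lay close to the other medium. COX3 took 9.84%, 10.5% and 11.3% against 8.24%, 8.64% and 9.82%, where the nearest libraries of the 2 media were almost equal. ND4 went from 18.7% ± 0.825 to 17.0% ± 0.411 and ND4L from 1.61% ± 0.0490 to 1.37% ± 0.0520. COX2 (9.25% ± 0.203 and 9.19% ± 0.570) and CYTB (5.87% ± 0.789 and 5.77% ± 0.318) had nearly equal mean shares. ND6 took 2.38%, 2.56% and 2.33% against 3.56%, 3.11% and 2.52%, with overlap (exact permutation p 0.2). Leaving out 1 library gave 8 to 11 genes without overlap, the 11 being without DMEM plus fatty acids replicate 3. Leaving out a library can only keep or raise this count, so the range does not show whether the 8 are robust.

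Pairs of neighbouring genes were also set against each other within each library. For every 100 counts of COX1 there were 12.7, 17.5 and 21.2 of ND2 in RPMI plus B27 and 26.1, 33.8 and 29.3 in DMEM plus fatty acids. COX3 follows ATP6 on the genome with a single shared base, and for every 100 counts of ATP6 there were 183, 181 and 195 of COX3 against 129.8, 136 and 151. ATP8 counts per 100 of ATP6 were 13.8, 12.1 and 11.8 against 11.2, 10.03 and 9.57, and ND4L counts per 100 of ND4 were 8.48, 8.502 and 8.84 against 8.20, 7.99 and 7.89. ATP8 and ND4L, the shorter gene of each overlapping pair shown above, were thus the lower ones relative to their partners in every DMEM plus fatty acids library. ND6 counts per 100 of ND5 were 33.2, 35.6 and 34.0 against 38.6, 37.2 and 36.6. Each of these ratios had an exact two-sided permutation p of 0.1, the smallest possible. For ND2 with COX1 and COX3 with ATP6 this adds nothing, since their shares above already separated in opposite directions. ND6 counts per 100 of the 12 other genes overlapped between media (exact permutation p 0.2).

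Nuclear subunits of the same complexes had positive log2 fold changes while the mitochondrially encoded ones had mostly negative ones. Of 75 tested nuclear subunits of complexes I, III, IV and ATP synthase, 70 had a positive log2 fold change, where 8219 of all 16107 genes tested did. Their median was 0.28 and 0 passed the edgeR test with adjusted p. At an unadjusted edgeR p under 0.05, 21 were higher and 1 lower, against 7.7% higher and 9.98% lower among all genes tested. Counts of the 13 mitochondrially encoded genes were 6.29, 5.58 and 6.71 times those of 76 nuclear subunits in RPMI plus B27 and 4.32, 3.24 and 3.99 times in DMEM plus fatty acids. The mean ratios were 6.19 ± 0.574 and 3.85 ± 0.556 (SD, n = 3 each), so that the second was 0.622 of the first. The ratio was lower in all 3 replicate numbers, and the groups did not overlap. Fibroblast and smooth muscle markers were lower in the same libraries, and their part in this ratio was not tested.

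**Figure D3:**
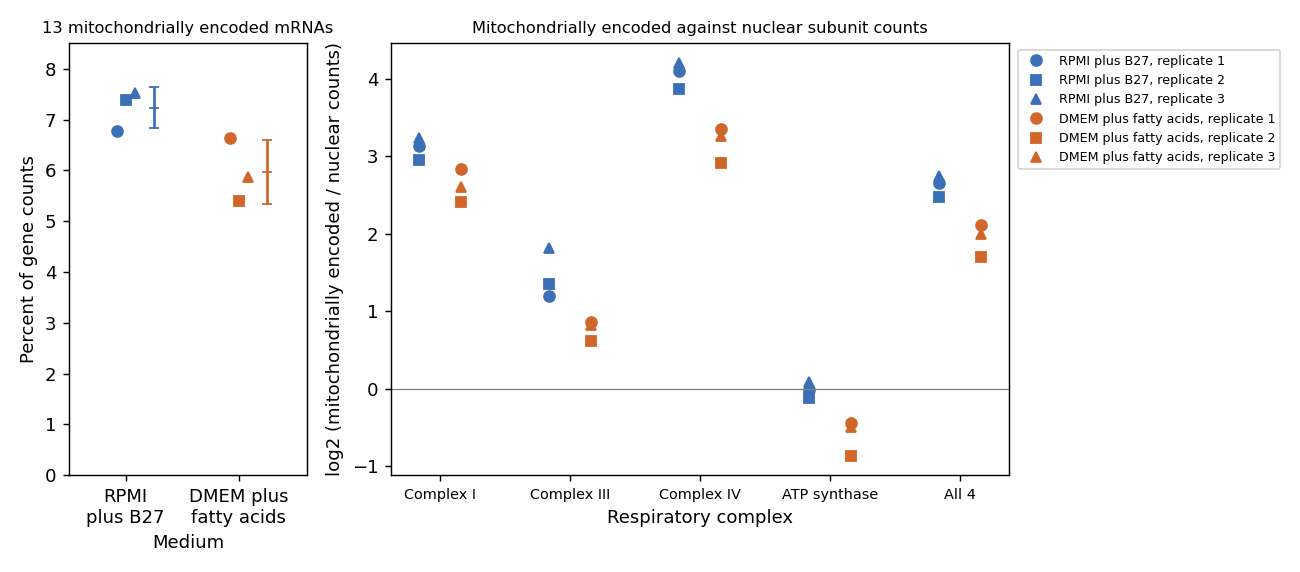
Left, percentage of gene counts from the 13 mitochondrially encoded mRNAs in each library (points, with mean ± SD of 3 beside them). Right, log2 of the ratio of summed counts of mitochondrially encoded to nuclear subunits of each complex, with libraries as points. In each complex the 3 DMEM plus fatty acids libraries lie below the 3 RPMI plus B27 libraries.

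The lower ratio was seen in each complex. In complex IV the 3 mitochondrially encoded genes had 17.2, 14.6 and 18.4 times the counts of 13 nuclear subunits in RPMI plus B27 and 10.2, 7.502 and 9.58 times in DMEM plus fatty acids, a ratio of means of 0.543. In complex III CYTB had 2.29, 2.56 and 3.53 times the counts of 9 nuclear subunits against 1.81, 1.53 and 1.77 times, a ratio of 0.611. In ATP synthase the values were 0.986, 0.918 and 1.06 times against 0.733, 0.549 and 0.711 times (0.673), and in complex I 8.79, 7.76 and 9.41 times against 7.16, 5.29 and 6.08 times (0.714). Among the nuclear subunits with the smallest p of their lists, COX6A1 of complex IV measured 85.8 ± 9.31 and 123.1 ± 9.72 CPM (0.52 ± 0.13, edgeR adjusted p 0.0972, DESeq2 adjusted p 0.0212). NDUFA9 of complex I measured 78.9 ± 10.4 and 116 ± 15.7 CPM (0.55 ± 0.15, edgeR adjusted p 0.128), UQCRFS1, the Rieske iron-sulfur protein of complex III, 149 ± 14.03 and 199 ± 16.7 CPM (0.42 ± 0.13, edgeR adjusted p 0.159), and ATP5ME of ATP synthase 76.5 ± 16.1 and 107 ± 10.3 CPM (0.49 ± 0.17, edgeR adjusted p 0.194). The other genes with the smallest p had log2 fold changes of 0.47 ± 0.14 (NDUFS3) and 0.34 ± 0.11 (NDUFA10) in complex I and 0.53 ± 0.19 (UQCR10) and 0.38 ± 0.15 (UQCRB) in complex III. In complex IV they were 0.46 ± 0.17 (COX5B) and 0.52 ± 0.21 (COX7B), and in ATP synthase 0.40 ± 0.14 (ATP5F1A) and 0.62 ± 0.24 (ATP5MC1). DESeq2 called 2 of the 75, COX6A1 and ATP5F1A (DESeq2 adjusted p 0.0452), where it called 7.71% of all genes it tested. With the replicate block 1 of the 75, NDUFB9 of complex I, named after its values were seen, passed (edgeR adjusted p 0.0408). In that fit 4.78% of all genes tested passed.

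Of the 23 nuclear members, 19 had a positive and 4 a negative log2 fold change, and 9 were higher and 1 lower without overlap, where 12.8% of all genes tested were so in each direction. These 9 were TFAM, TFB2M, TEFM, LRPPRC, PNPT1, SUPV3L1, ELAC2, MTPAP and TACO1, and the lower one was POLRMT. Without RPMI plus B27 replicate 1, which had the lowest value of its group for 8 of these 9 genes, 14 were higher and 9 lower and the median was 0.10.

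**Figure D4:**
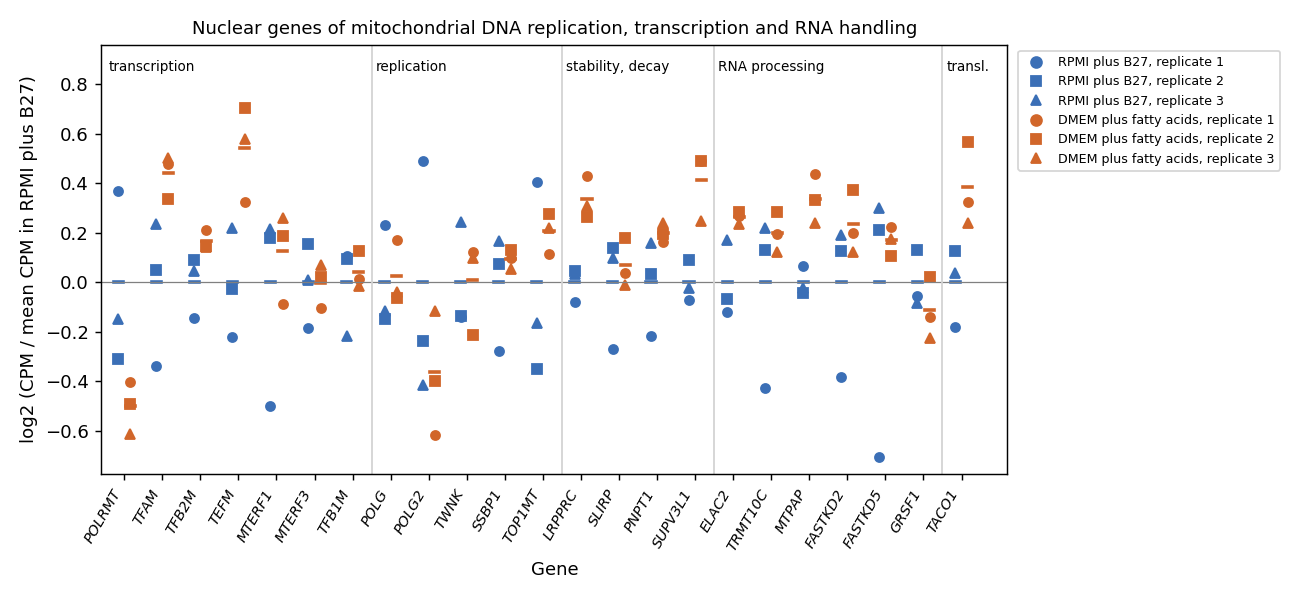
CPM of the 23 nuclear members in each library, as log2 of the ratio to the gene's mean in RPMI plus B27 (y axis), grouped by role (x axis). Points are libraries and short bars group means. POLRMT lies lower in all DMEM plus fatty acids libraries. TFAM, TFB2M, TEFM, LRPPRC, PNPT1, SUPV3L1, ELAC2, MTPAP and TACO1 lie higher, and the replication genes overlap.

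The 3 proteins that start mitochondrial transcription did not share a direction. TFAM, which bends and packages mitochondrial DNA and activates its promoters, measured 35.4, 46.3 and 52.6 CPM in RPMI plus B27 and 62.3, 56.6 and 63.5 CPM in DMEM plus fatty acids. Its log2 fold change was 0.44 ± 0.16 (95% interval 0.06 to 0.82, edgeR adjusted p 0.218). POLRMT, the RNA polymerase, measured 78.7, 49.2 and 55.0 CPM against 46.1, 43.3 and 39.9 CPM (-0.50 ± 0.19, 95% interval -0.94 to -0.06, edgeR adjusted p 0.228). The high RPMI plus B27 value of POLRMT was that of replicate 1, without which its log2 fold change was -0.28. TFB2M, which opens the promoter with the polymerase, measured 11.04, 12.98 and 12.6 CPM against 14.1, 13.5 and 13.5 CPM (0.17 ± 0.15, edgeR adjusted p 0.611; 0.10 without RPMI plus B27 replicate 1).

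TFAM, TFB2M and POLRMT are shown with the 250 bases before their annotated starts, since they work together but had log2 fold changes of both signs. Capitals mark matches on either strand to CGCNNGCGC, letters typical of sites of the regulator NRF1, or to CCGGAAG, letters typical of sites of the GABP factor (sequences from RefSeq, GRCh38.p14, written along the gene's own strand).
TFAM, chr10:58385160-58385409, plus strand: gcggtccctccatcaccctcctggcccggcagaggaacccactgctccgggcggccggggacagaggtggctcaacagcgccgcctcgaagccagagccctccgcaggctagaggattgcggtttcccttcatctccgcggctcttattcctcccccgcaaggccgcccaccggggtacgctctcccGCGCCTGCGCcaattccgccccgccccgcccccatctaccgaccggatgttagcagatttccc
TFB2M, chr1:246566262-246566511, minus strand: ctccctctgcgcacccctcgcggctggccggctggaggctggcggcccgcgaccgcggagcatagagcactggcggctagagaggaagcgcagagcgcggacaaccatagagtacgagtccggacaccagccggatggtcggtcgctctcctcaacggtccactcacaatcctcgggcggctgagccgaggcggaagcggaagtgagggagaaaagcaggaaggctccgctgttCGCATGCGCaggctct
POLRMT, chr19:633538-633787, minus strand: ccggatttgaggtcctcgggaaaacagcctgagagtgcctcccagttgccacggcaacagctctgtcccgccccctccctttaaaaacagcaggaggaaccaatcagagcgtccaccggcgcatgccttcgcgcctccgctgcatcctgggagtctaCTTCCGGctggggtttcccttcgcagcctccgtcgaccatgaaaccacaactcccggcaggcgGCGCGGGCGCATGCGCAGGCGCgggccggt
All 3 windows held CGCNNGCGC, and POLRMT also held CCGGAAG. Sequences were matched for 19 of the 23 nuclear members. CGCNNGCGC was in 7 of the 19 (36.8%) and in 14.3% of 35116 windows of the same length before all genes in the table, non-coding genes included, and CCGGAAG was in 7 of the 19 (36.8%) and in 8.52%. The patterns were chosen with these sequences known, matches to the first can overlap each other, and a match is a description of letters. GABPA, the DNA-binding subunit of GABP, measured 35.6 ± 3.71 CPM in RPMI plus B27 and 44.9 ± 2.39 CPM in DMEM plus fatty acids (0.33 ± 0.13, edgeR adjusted p 0.238).

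Of the other transcription genes, TEFM, the elongation factor, had the largest positive log2 fold change of the 36 members. It measured 5.58, 6.38 and 7.57 CPM against 8.14, 10.6 and 9.72 CPM (0.54 ± 0.21, 95% interval 0.06 to 1.03, edgeR adjusted p 0.238). MTERF1 and MTERF3, proteins of the mitochondrial termination factor family, had 0.13 ± 0.24 and -0.003 ± 0.18. TFB1M, a paralogue of TFB2M that methylates the small ribosomal RNA, had 0.04 ± 0.16. These 3 overlapped between media.

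The 5 replication genes had log2 fold changes of -0.36 to 0.20, and all 5 overlapped between media. POLG, the catalytic subunit of the DNA polymerase, measured 77.3 ± 11.7 and 78.7 ± 7.20 CPM (0.03 ± 0.14, 95% interval -0.30 to 0.36). TWNK, the helicase, measured 13.9 ± 2.20 and 13.95 ± 1.75 CPM (0.01 ± 0.19, 95% interval -0.43 to 0.44), and SSBP1, the single-stranded DNA binding protein, 59.1 ± 9.23 and 63.1 ± 1.66 CPM (0.09 ± 0.14). POLG2, the accessory subunit, measured 9.65, 5.83 and 5.15 CPM against 4.48, 5.22 and 6.34 CPM and TOP1MT, the mitochondrial topoisomerase, 8.63, 5.11 and 5.82 CPM against 7.06, 7.89 and 7.59 CPM. In POLG2 and TOP1MT RPMI plus B27 replicate 1 was the highest of its group. The log2 fold change of POLG2 was -0.36 with it and -0.04 without it. That of TOP1MT was 0.20 with all libraries, 0.46 without RPMI plus B27 replicate 1, 0.06 without replicate 2 and 0.13 without replicate 3 of that medium. The 95% intervals of POLG and SSBP1 lay within -0.30 to 0.42, while that of POLG2 reached -1.06 and that of TOP1MT 0.78.

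Genes of RNA stability and decay had positive log2 fold changes throughout, with a median of 0.27. LRPPRC, which holds mitochondrial mRNAs and promotes their polyadenylation, measured 227, 247 and 245 CPM against 323, 288 and 297 CPM (0.34 ± 0.11, edgeR adjusted p 0.188, DESeq2 adjusted p 0.0778). SUPV3L1, the helicase of the degradosome, measured 28.7, 32.2 and 29.7 CPM against 42.4, 42.4 and 35.8 CPM (0.41 ± 0.13, edgeR adjusted p 0.166, the smallest of the nuclear members). Both were higher in every DMEM plus fatty acids library than in any RPMI plus B27 library. PNPT1, the nuclease that works with SUPV3L1, measured 31.5 ± 4.11 and 36.1 ± 0.997 CPM (0.20 ± 0.14, and 0.10 without RPMI plus B27 replicate 1), and SLIRP, the partner of LRPPRC, 24.5 ± 3.62 and 25.7 ± 1.77 CPM (0.07 ± 0.15), which overlapped.

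Of the 6 RNA processing genes, MTPAP, the poly(A) polymerase of mitochondria, measured 19.97, 18.5 and 18.8 CPM against 25.8, 24.1 and 22.5 CPM (0.34 ± 0.13, edgeR adjusted p 0.241). ELAC2, which cuts the 3' ends of transfer RNAs, measured 82.6, 85.7 and 101 CPM against 108, 109 and 106 CPM (0.26 ± 0.11, edgeR adjusted p 0.292). Neither gene overlapped between media. TRMT10C, a subunit of the RNase P that cuts the 5' ends, had 0.20 ± 0.19, and the FASTK family RNA binding proteins FASTKD2 and FASTKD5 had 0.24 ± 0.17 and 0.17 ± 0.25. Without RPMI plus B27 replicate 1 the values were 0.02 for TRMT10C, 0.07 for FASTKD2 and -0.09 for FASTKD5. FASTKD5 measured 18.3, 34.6 and 36.8 CPM in RPMI plus B27, a spread carried by replicate 1. GRSF1, an RNA binding protein of mitochondrial RNA granules, had -0.11 ± 0.12 and was lower within each replicate number.

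TACO1, which activates translation of the COX1 message, measured 26.6, 32.9 and 30.9 CPM against 37.7, 44.6 and 35.6 CPM (0.38 ± 0.15, edgeR adjusted p 0.236). It was higher in all DMEM plus fatty acids libraries, whereas COX1 itself was lower in all of them.

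Other genes of the same processes were taken from 4 fixed lists, and 0 of their 70 genes passed the edgeR test. Of 17 further genes of mitochondrial DNA maintenance and nucleotide supply, 6 had a positive log2 fold change (median -0.07). SAMHD1, a hydrolase of DNA building blocks, measured 14.96 ± 2.67 and 24.4 ± 3.58 CPM (0.70 ± 0.19, edgeR adjusted p 0.124). It passed with the replicate block (edgeR adjusted p 0.0482) and by DESeq2 (adjusted p 0.0240). TK2, the mitochondrial thymidine kinase, had 0.43 ± 0.19 and MPV17, an inner membrane protein needed for mitochondrial DNA maintenance, -0.37 ± 0.17. Of 33 further RNA processing and modification genes, 25 were positive (median 0.15). MRM1, a methyltransferase of the large ribosomal RNA, had 0.74 ± 0.23 (edgeR adjusted p 0.166, DESeq2 adjusted p 0.0464), the RNA binding protein FASTKD1 0.45 ± 0.15 and the helicase DDX28 0.57 ± 0.24.

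Of 12 mitochondrial translation factors, 11 were positive (median 0.22). MRRF, which recycles mitochondrial ribosomes, measured 31.5 ± 0.979 and 46.4 ± 7.54 CPM (0.56 ± 0.15, edgeR adjusted p 0.120, DESeq2 adjusted p 0.0379), GFM1, an elongation factor, 101 ± 20.7 and 141 ± 11.8 CPM (0.49 ± 0.17, edgeR adjusted p 0.201), and MTIF3, an initiation factor, had 0.29 ± 0.12. Of 8 nuclear regulators of these genes, 5 were positive (median 0.20). PPARGC1B, a coactivator of mitochondrial gene programmes, had 0.41 ± 0.21 and GABPB1, the partner subunit of GABPA, 0.23 ± 0.19.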

How the data were processed

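Stranded poly(A) RNA from 6 libraries was analysed. Each library had 1 deposited file of raw gene counts keyed by symbol, made with STAR and HTSeq on hg38, per the submitters' processing notes. Tool versions, annotation and strand setting are not given in the sources used here, so antisense overlap is uncertain. Gene rows held 84.4% to 87.2% of each file's counts. Rows that name no gene were left out, and 5.44% to 7.57% of counts fell on no gene. Mitochondrial ribosomal and transfer RNAs were not analysed here.

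Tests used edgeR 4.0.16 (R 4.3.3; filterByExpr, minimum count 10 and minimum total 15, TMM, quasi-likelihood test, no covariates, threshold 0.05) over 16107 genes, with a biological coefficient of variation of 25.6%. Each SE was derived from the log2 fold change and its F statistic. The fit was tested on simulated data with larger changes than those of any member, so that test does not bear on changes of the members' size. Alternatives were library totals, RLE factors, scaling without the 13 genes, DESeq2 1.42.0, no filter, 10 counts in every library, a replicate block and leaving out each library. The titles number the replicates 1 to 3 in both media. Deviations of same-numbered libraries from their group means correlated at 0.31, 0.43 and 0.37 across genes and others at -0.24 to -0.14. Deviations within a group cancel out, so positive values for same numbers make the others negative on average. The second range is thus not separate evidence. No label names what same-numbered libraries share. The replicate block took the numbers as pairing, while the main test and the permutation tests did not. With the block the biological coefficient of variation was 18.2%. No 2 libraries of a group agreed within sampling noise (smallest chi-square per degree of freedom 32.2). Members and lists were chosen with earlier results of these data known. Every member is named, and of each other list the genes that passed, or else the 3 with the smallest p. Cell type marker lists are given as counts and summed levels. A single floor of 3 counts was used for a count of 0.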

Additional observations from a re-analysis of the deposited data

How the results depend on the processing

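With 3 libraries a group no member passed the edgeR test in any of the alternatives, and 4 passed by DESeq2, at log2 fold changes of -0.52 (ND4), -0.62 (ND4L), -0.57 (COX1) and -0.65 (COX3). The cause was not tested. Counts of called genes over all genes were 1218 by DESeq2, 539 without a filter, 119 with 10 counts in every library and 770 with the replicate block, which changed no member's call. Leaving out 1 library gave 3 (without DMEM plus fatty acids replicate 3) to 131 (without RPMI plus B27 replicate 3) called genes, medians of -0.49 to -0.28 for the mitochondrially encoded genes and 0.10 to 0.25 for the nuclear members, and share differences of -1.603 to -0.978 percentage points. With library totals as scaling, log2 fold changes turned to 0.0731 for ND1, 0.0541 for ND3, 0.0697 for ND6 and 0.107 for MTERF3. MTERF3 was also 0.00987 without a filter and 0.000613 with the replicate block, and TWNK was -0.00026 by DESeq2. Leaving out 1 library, signs turned within -0.0961 to 0.0763 for ND1, -0.217 to 0.0609 for ND3, -0.285 to 0.138 for ND6, -0.0700 to 0.252 for MTERF1, -0.0876 to 0.0795 for MTERF3, -0.0532 to 0.0973 for TFB1M, -0.0552 to 0.156 for POLG, -0.0574 to 0.150 for TWNK, -0.0283 to 0.188 for SSBP1, -0.0488 to 0.143 for SLIRP and -0.0879 to 0.347 for FASTKD5. The other 25 members kept their direction in all 13 alternatives.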
